A study of Mus musculus with 6 samples.

Results

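Sox10, Foxd3 and Erbb3 are genes of the neural crest and of the Schwann cell lineage that arises from it. They were followed here across sorted cells of the embryonic mouse spinal cord. The 3 genes were taken by name, and all probes whose RefSeq accession matched them were used. Each gene was represented by 1 probe, so that 3 probes of 55681 on the array and 3 genes of the 19897 genes with a matched probe were examined. All 3 passed the filter on dim probes, which 14918 genes passed.

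Cells came from spinal cords of mouse embryos at E12.5, in days of embryonic development, that carried the Hb9::GFP reporter, in which GFP is driven by the promoter of the motor neuron gene Hb9 (Mnx1). Cells were sorted by flow cytometry into a GFP-on fraction, which the labels call motor neurons, and a GFP-off fraction holding the other cells of the dissected cord. The groups were GFP-on cells of embryos labelled mir-17~92 -/- (2 arrays), GFP-on cells of embryos labelled wild type (2 arrays), GFP-off cells labelled mir-17~92 -/- (1 array) and GFP-off cells labelled wild type (1 array). All groups carried the reporter. The labels do not say whether replicates came from separate embryos or pools, so p-values measure the spread between these arrays, which may be technical. In such bulk fractions, fewer cells of a type and less RNA per cell cannot be told apart.

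Neural crest cells leave the dorsal neural tube, migrate through the embryo and give rise to sensory and autonomic neurons, pigment cells and the Schwann cells that ensheathe peripheral axons. Sox10 is a transcription factor of the SOX family that migrating crest cells hold and that glial cells keep. Foxd3 is a forkhead transcription factor of early crest and of Schwann cell precursors. Erbb3 is the receptor through which crest cells and Schwann cell precursors bind neuregulin 1, an axonal signal, and it signals as a dimer with Erbb2. Sox10 is also used by oligodendrocyte precursors inside the cord, and Foxd3 by some spinal interneurons (V1 and dI2), so neither gene marks crest alone.

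Promoter sequence is printed for Foxd3 and for the 3 genes whose level followed Sox10 most closely over the 6 arrays. Of 11 genes looked up in the RefSeq promoter table (GRCm38.p6), which were the 3 genes, those 3 and the 5 Schwann lineage genes past the threshold between fractions, 6 had a sequence. Sox10, Erbb3, Cdh19, Gap43 and Pou3f1 were without one. Each stretch is the 250 bases before the annotated start of transcription, at chr4:99656049-99656298 on the forward strand for Foxd3, chr2:180986285-180986534 forward for Col20a1, chr1:32172472-32172721 forward for Khdrbs2 and chr17:34615972-34616221 on the reverse strand for Egfl8. Capitals mark matches, on either strand, to the SOX core ACAANG, the cyclic AMP response element TGACGTCA and the E-box CACGTG, motifs chosen after the sequences were seen.
Foxd3: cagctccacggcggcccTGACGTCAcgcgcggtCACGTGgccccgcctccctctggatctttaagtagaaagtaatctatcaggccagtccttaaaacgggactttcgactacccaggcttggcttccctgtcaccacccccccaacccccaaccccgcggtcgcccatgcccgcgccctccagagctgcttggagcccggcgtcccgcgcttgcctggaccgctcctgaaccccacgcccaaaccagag
Col20a1: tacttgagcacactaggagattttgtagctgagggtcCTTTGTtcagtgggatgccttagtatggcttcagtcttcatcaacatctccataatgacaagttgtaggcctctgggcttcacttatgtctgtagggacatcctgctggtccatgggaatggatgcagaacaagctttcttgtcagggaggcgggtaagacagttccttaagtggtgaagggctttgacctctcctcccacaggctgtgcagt
Khdrbs2: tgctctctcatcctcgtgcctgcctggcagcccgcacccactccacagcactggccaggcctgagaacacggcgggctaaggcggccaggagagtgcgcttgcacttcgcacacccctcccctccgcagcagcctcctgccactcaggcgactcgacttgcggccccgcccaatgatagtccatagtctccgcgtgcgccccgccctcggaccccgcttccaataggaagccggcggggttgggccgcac
Egfl8: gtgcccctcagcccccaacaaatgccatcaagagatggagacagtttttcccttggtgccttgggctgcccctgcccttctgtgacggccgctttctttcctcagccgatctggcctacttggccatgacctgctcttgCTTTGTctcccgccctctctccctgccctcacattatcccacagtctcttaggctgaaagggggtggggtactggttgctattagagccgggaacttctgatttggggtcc
Foxd3 held TGACGTCA between positions -233 and -226 before its start and CACGTG between -217 and -212, and no ACAANG. Col20a1 held 1 ACAANG match at -213 to -208 and Egfl8 held 1 at -111 to -106, both read as CTTTGT, while Khdrbs2 held none of the 3 motifs. Among 32851 promoter stretches of this length, 36.32% held ACAANG, 1.55% held TGACGTCA and 6.02% held CACGTG. The stretches of the Schwann lineage genes Dhh and Mal, which are not printed, held none of the 3 motifs.

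All levels below are log2 processed signals minus the 75th percentile of the same array, so that 0 is the brightness below which 75% of that array's probes lie. The 75th percentile itself was 59.9 and 506 on the knockout-labelled GFP-on arrays, 48.5 and 64.5 on the wild-type-labelled GFP-on arrays, 550 on the knockout-labelled GFP-off array and 340 on the wild-type-labelled GFP-off array. Between 40.3% and 61.2% of probes were well above background. The 2 wild-type-labelled GFP-on arrays stood apart: over the genes tested they correlated at 0.778 to 0.906 with the other 4, which correlated at 0.928 to 0.978 among themselves. The knockout-labelled GFP-on arrays lay in row 1 of the slide and the other 4 in row 2, so genotype label and row cannot be told apart among GFP-on arrays. Mir17hg, the host transcript of the deleted microRNA cluster, read 4.55 and 4.78 log2 on the knockout-labelled GFP-on arrays, against -2.38 and 2.73 on the arrays of wild-type-labelled GFP-on cells. In GFP-off cells it read 4.62 on the knockout-labelled array and -1.23 on the wild-type-labelled one. Its probe was not placed relative to the deletion here, and the genotypes are named by their labels throughout.

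Sox10 and Foxd3 were higher in GFP-on than in GFP-off cells, by 15.2-fold and 19.6-fold, while Erbb3 did not pass the test. The Erbb3 probe was flagged well above background on all 6 arrays but was dim. It lay 0.36 to 2.25 log2 above the lowest signal so flagged on the same array. The fractions were compared over all 6 arrays in an additive limma model of genotype label and fraction, with Benjamini-Hochberg adjustment over the 14918 genes and a threshold of 0.05. In that comparison 2 of the 3 genes were called higher, where 2.29% of all genes were called, 1.54% higher and 0.751% lower.

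Sox10 read 5.09 and 3.68 log2 on the knockout-labelled GFP-on arrays and 4.23 and 3.99 on the wild-type-labelled GFP-on arrays. It read 0.04 on the knockout-labelled GFP-off array and 0.60 on the wild-type-labelled GFP-off array. All 4 GFP-on arrays lay above both GFP-off arrays, with no overlap, as did 10.9% of genes tested. Before scaling, Sox10 had processed signals of 2036 and 6492 on the knockout-labelled and 911 and 1026 on the wild-type-labelled GFP-on arrays, against 566 and 517 on the GFP-off arrays in that order, again without overlap between fractions. The scaled difference was 3.93 ± 0.51 log2 (SE, limma adjusted p = 0.0158). Its probe was well above background on all 6 arrays, GFP-off included.

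Foxd3 read 2.62 and 2.38 log2 on the knockout-labelled GFP-on arrays and 2.05 and 2.13 on the wild-type-labelled GFP-on arrays. It read -2.03 on the knockout-labelled GFP-off array and -1.97 on the wild-type-labelled GFP-off array. Its arrays also fell into separate ranges by fraction, and the values within each fraction were close together. Its unscaled signals ran from 200 to 2637 on the 4 GFP-on arrays, against 135 and 86.9 on the GFP-off arrays. The scaled difference was 4.29 ± 0.40 log2 (SE, limma adjusted p = 0.00868), which lay above those of 99.9% of genes tested.

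Erbb3 read -2.20 and -3.48 log2 on the knockout-labelled GFP-on arrays and -1.74 and -0.66 on the wild-type-labelled GFP-on arrays. It read -4.22 on the knockout-labelled GFP-off array and -2.71 on the wild-type-labelled GFP-off array. One GFP-on array lay below the higher GFP-off array, so the fractions overlapped. The difference was 1.45 ± 0.52 log2 and did not pass the test (SE, limma adjusted p = 0.162). Before scaling, the processed signal of Erbb3 read 13.0 and 45.3 on the knockout-labelled GFP-on arrays, 14.5 and 40.9 on the wild-type-labelled GFP-on arrays, 29.5 on the knockout-labelled GFP-off array and 52.1 on the wild-type-labelled GFP-off array. Its 3 highest scaled levels were those of the 3 arrays with a 75th percentile between 48.5 and 64.5, and its 3 lowest those of the arrays with one between 340 and 550. The part of this in its difference was not tested.

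**Figure D1:**
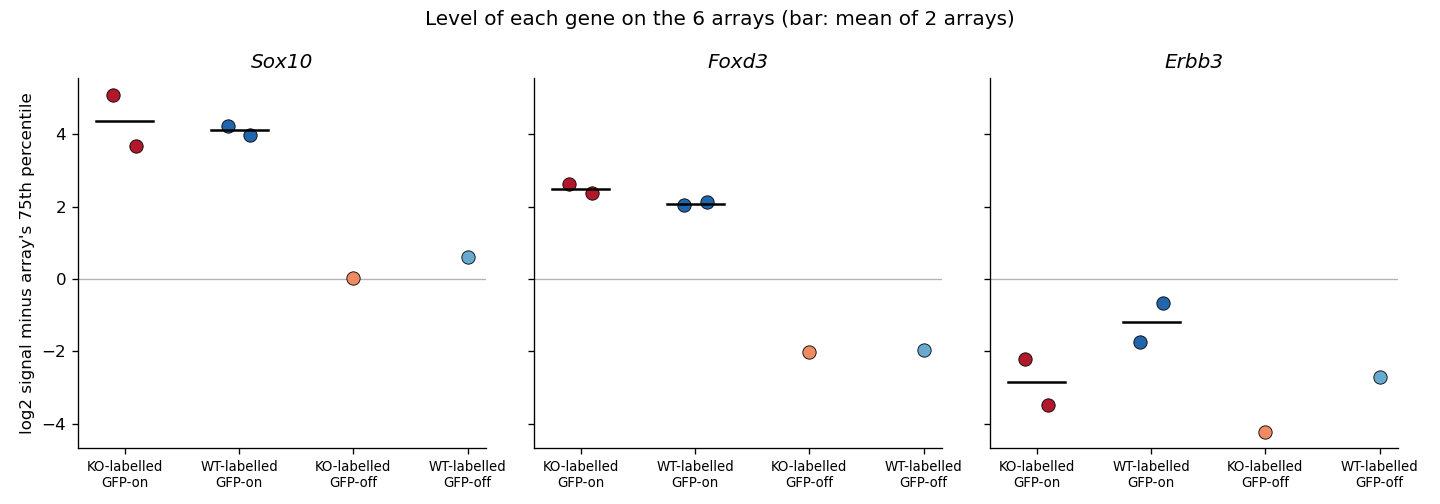
Level of Sox10, Foxd3 and Erbb3 on each array, as log2 processed signal minus the array's 75th percentile; points are arrays and bars the mean of the 2 arrays of a GFP-on group. Sox10 and Foxd3 lie above both GFP-off points on all 4 GFP-on arrays, and Erbb3 overlaps between the fractions.

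Ordered by level, the groups ran for Sox10 as knockout-labelled GFP-on (4.38 ± 0.99, SD, n = 2), wild-type-labelled GFP-on (4.11 ± 0.17, SD, n = 2), wild-type-labelled GFP-off and knockout-labelled GFP-off. The first 2 overlapped. For Foxd3 the order was knockout-labelled GFP-on (2.50 ± 0.17, SD, n = 2), wild-type-labelled GFP-on (2.09 ± 0.06, SD, n = 2), then both GFP-off arrays at nearly the same level. For Erbb3 it was wild-type-labelled GFP-on (-1.20 ± 0.77, SD, n = 2), wild-type-labelled GFP-off, knockout-labelled GFP-on (-2.84 ± 0.91, SD, n = 2) and knockout-labelled GFP-off. The single wild-type-labelled GFP-off value of Erbb3 lay between the 2 knockout-labelled GFP-on values.

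The fractions were also compared within each genotype label. On knockout-labelled arrays the GFP-on minus GFP-off difference was 4.34 ± 0.70 log2 for Sox10 (SE, limma adjusted p = 0.116), 4.53 ± 0.57 for Foxd3 (adjusted p = 0.0859) and 1.38 ± 0.75 for Erbb3 (adjusted p = 0.703). In this comparison, of 2 arrays with 1, 0 of 14918 genes passed the limma threshold and 1416 had an unadjusted p under 0.05. On wild-type-labelled arrays the differences were 3.51 ± 0.70 for Sox10 (limma adjusted p = 0.0341), 4.06 ± 0.57 for Foxd3 (adjusted p = 0.0180) and 1.51 ± 0.75 for Erbb3 (adjusted p = 0.232). Without replicate 1 of the wild-type-labelled GFP-on arrays, Erbb3 passed there at 2.05 log2 (limma adjusted p = 0.0233). On wild-type-labelled arrays 2 of the 3 genes were called higher, where 5.85% of all genes were called, 1.49% higher and 4.36% lower. The tested difference between the labels, knockout-labelled minus wild-type-labelled, was 0.83 ± 0.99 log2 for Sox10 (limma adjusted p = 0.855), 0.47 ± 0.81 for Foxd3 (adjusted p = 0.913) and -0.13 ± 1.06 for Erbb3 (adjusted p = 0.984), and 0 of 14918 genes passed it (limma, 1430 at an unadjusted p under 0.05).

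The calls of Sox10 and Foxd3 depended on which arrays and scaling were used. The sign was positive in all 21 alternatives run, although some of these repeat one another. Without replicate 1 of the wild-type-labelled GFP-on arrays the differences were 3.93 and 4.34 log2 and missed the threshold (limma adjusted p = 0.103 for Sox10 and 0.0921 for Foxd3). They missed it also without the wild-type-labelled GFP-off array (limma adjusted p = 0.116 and 0.0862), with quantile normalization and with no filter on dim probes. Only the knockout-labelled GFP-on arrays lay in row 1, so a slide row block repeated the wild-type-labelled comparison and was no separate check. With that block the differences were 3.51 and 4.06 log2. With no scaling between arrays they were 1.79 and 2.16 log2, beside a median of -2.34 over all genes. Relative to the median of all genes, the difference was 4.14 log2 for Sox10, 4.50 for Foxd3 and 1.66 for Erbb3, a value that subtracting a constant from each array cannot change. It was 4.17, 4.53 and 1.64 with quantile normalization, and 3.22, 3.35 and 1.32 with normexp background correction. Erbb3 was lower in GFP-on cells when unscaled, at -0.69 log2.

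**Figure D2:**
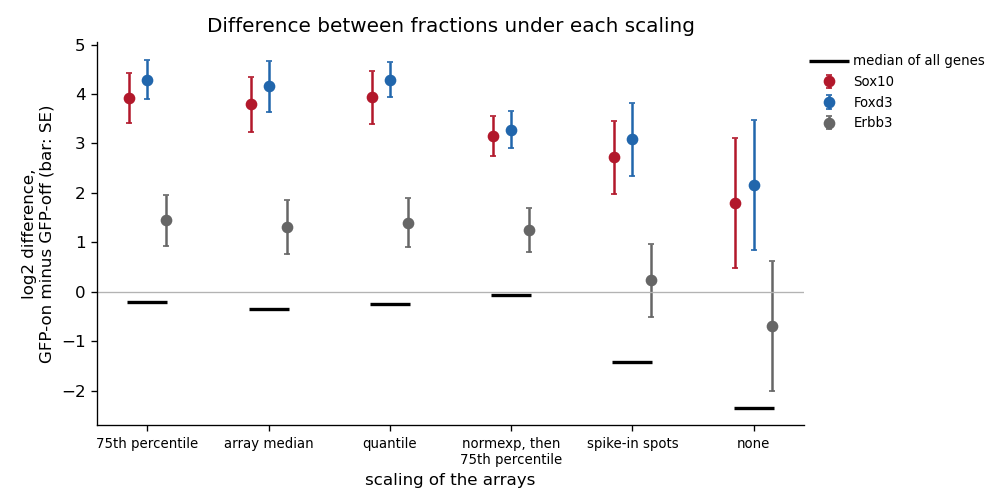
Difference between GFP-on and GFP-off cells under 6 ways of scaling the arrays, for Sox10, Foxd3 and Erbb3 (points, with SE) and for the median of all genes tested (black bars). Where no scaling is applied, Sox10 is at 1.79, Foxd3 at 2.16 and the median at -2.34.

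Between genotype labels in GFP-on cells, none of the 3 genes passed the limma threshold (1 had an unadjusted p under 0.05), where 23% of all genes were called, 15.8% higher and 7.24% lower in knockout-labelled cells. Sox10 differed by 0.27 ± 0.57 log2, knockout-labelled minus wild-type-labelled (SE, limma adjusted p = 0.758), and its arrays overlapped. Both knockout-labelled values of Foxd3 lay above both wild-type-labelled values, as for 41.3% of genes, and the difference was 0.41 ± 0.47 log2 (limma adjusted p = 0.550), close to the median of all genes of 0.34. Both knockout-labelled values of Erbb3 lay below both wild-type-labelled values, as for 26% of genes, and the difference was -1.64 ± 0.61 log2 (limma adjusted p = 0.0833). Leaving out replicate 1 of the wild-type-labelled arrays brought it past the threshold at -2.18 log2 (limma adjusted p = 0.00498), while unscaled it was -0.0030 and with spike-in scaling 0.067. Leaving out replicate 1 of the knockout-labelled arrays turned Sox10 to -0.43 log2.

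In GFP-off cells, with 1 array a label and therefore no test, the knockout-labelled minus wild-type-labelled difference was -0.56 log2 for Sox10, -0.06 for Foxd3 and -1.51 for Erbb3, beside a median of 0.09 over all genes.

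Genes of the Schwann lineage were read beside the 3 genes. Of 20 listed, 19 were tested, and 5 passed as higher in GFP-on cells while 0 fell (limma, 14 not past the threshold), where 1.54% of all genes were called higher and 0.751% lower. Those higher were Mal, a myelin and lymphocyte protein (3.39 ± 0.57 log2), Dhh, the desert hedgehog signal that Schwann cells release (2.81 ± 0.48), Pou3f1, a POU factor needed for myelination that motor neurons also use (2.43 ± 0.45), and Gap43, a growth cone protein that is abundant in growing neurons (2.21 ± 0.41). The adjusted p of these 4 lay between 0.0282 and 0.0371 (limma). The remaining one, Cdh19, a cadherin of Schwann cell precursors, reached the filter through the knockout-labelled GFP-on arrays alone, so its call is no support for a difference between fractions. The list's median difference was 0.62 log2, and 15 of 19 were positive, beside a median of -0.21 over all genes. Other choices of arrays moved these calls: leaving out a single array took the count of higher genes to 0 for replicate 1 of either GFP-on group and for either GFP-off array, and it was 8 on the knockout-labelled arrays alone, against 1 on the wild-type-labelled arrays alone. It was 0 also with the slide row as a block, quantile normalization, no filter on dim probes, spike-in signal in the model or no scaling.

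Mal read 1.14 and -0.07 log2 on knockout-labelled and -0.67 and -2.23 on wild-type-labelled GFP-on arrays, against -3.18 on the knockout-labelled GFP-off array and -4.52 on the wild-type-labelled GFP-off array. Dhh read 1.25, 0.41, 0.24 and -0.46 on the GFP-on arrays in that order, against -2.51 and -2.39 on the GFP-off arrays. All 4 GFP-on arrays of each lay above both GFP-off arrays, as for 10.9% of genes tested. Mal was well above background on 3 of the 4 GFP-on arrays and 1 of the 2 GFP-off arrays. Cdh19 read -1.91 and -2.57 on the knockout-labelled GFP-on arrays, above background, and was not well above it on the 2 wild-type-labelled GFP-on arrays, at -4.15 and -4.06. In GFP-off cells it was not well above background on either array, at -6.16 and -5.88. Ednrb, an endothelin receptor of crest cells, differed by 1.89 log2 and did not pass (limma adjusted p = 0.144). At the other end Wif1, a Wnt inhibitor, differed by -1.89 log2 and Pmp22, a peripheral myelin protein, by -1.20, also not past the threshold. Gfap did not reach the filter.

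**Figure D3:**
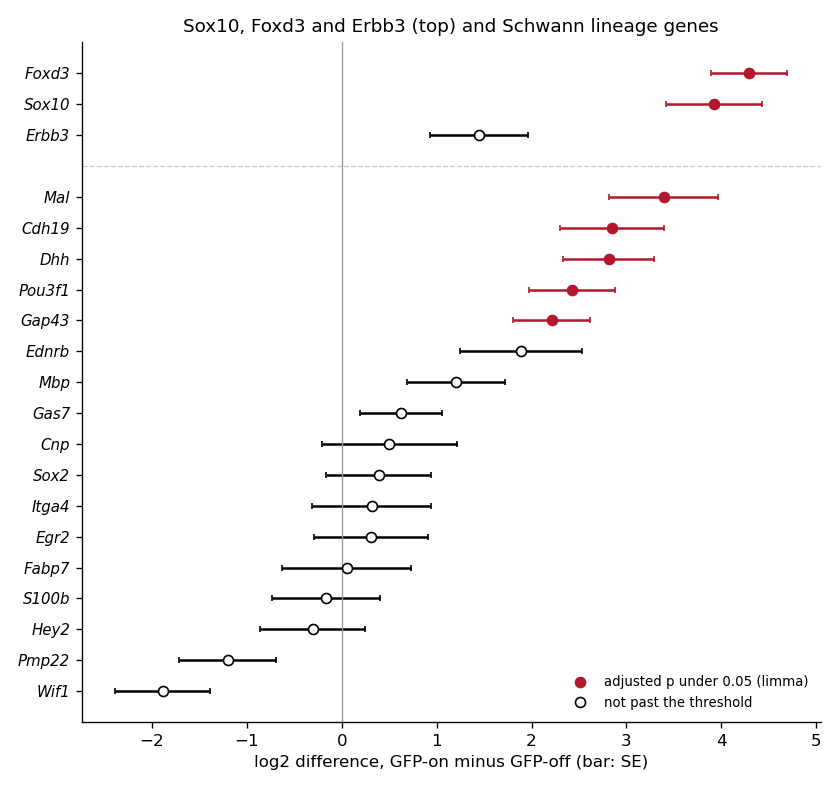
Difference between GFP-on and GFP-off cells (points, with SE, log2) for Sox10, Foxd3 and Erbb3 at the top and 17 of the 19 tested Schwann lineage genes below; filled points passed the limma threshold. Foxd3 (4.29) and Sox10 (3.93) and 5 Schwann lineage genes passed, Cdh19 among them with 2 of 6 arrays above background, and 4 of the 17 lie below 0.

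Of 16 other genes that specify the crest, all tested, 0 passed the threshold between fractions (limma, 8 at an unadjusted p under 0.05), and 7 were positive, with a median of -0.33 log2. The widest differences were those of Sox9, a SOX factor of early crest (-2.44 log2, limma adjusted p = 0.121), Pax7, a paired-box factor of dorsal cord and crest (-2.31), and Myc, a growth-promoting factor of early crest (-1.80). Sox9 was well above background on 3 of the 4 GFP-on arrays, and Pax7 and Myc on the 2 knockout-labelled ones alone, so these differences rest in part on arrays where the probes were not above background. Of 13 tested genes of other crest derivatives 0 passed either (limma, 4 at an unadjusted p under 0.05). The widest difference, 2.62 log2, was that of Ret, a receptor of enteric crest cells that is not particular to crest. Ret was not above background on 1 of the 2 wild-type-labelled GFP-on arrays. Between the fractions of wild-type-labelled cells, Sox9 fell by 4.0 log2 (limma adjusted p = 0.0331) and Myc was at least 6.92-fold lower (adjusted p = 0.0271), 2 of 16 where 4.36% of genes were lower. This bound, as others below, sets the bright group's mean against the higher of each dim array's lowest signal well above background and the probe's own signal. Sox9 was above background on 1 of the 2 wild-type-labelled GFP-on arrays. Neither Sox9 nor Myc differed between labels in that contrast past the threshold (limma adjusted p = 0.447 for Sox9 and 0.397 for Myc).

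Erbb3's partners and ligands were mixed. Of 15 listed genes of neuregulins, ERBB receptors and their other ligands and regulators, 9 reached the filter. Nrg3, a neuregulin of neurons, reached it through the GFP-on arrays alone, being well above background on all 4 of them and on neither GFP-off array, and was at least 9.93-fold higher (limma adjusted p = 0.00868). It is given as a value and not as support, since the filter admitted it through the group where it is high. Of the other 8 genes, 0 passed between fractions (limma, 2 at an unadjusted p under 0.05). Nrg1, the ligand of Erbb3, read 1.35 and 1.60 log2 on the knockout-labelled and 1.04 and 0.29 on the wild-type-labelled GFP-on arrays, against 0.05 and 0.15 on the GFP-off arrays in that order. All GFP-on values were the higher, as for 10.9% of genes tested, but the difference of 0.97 ± 0.45 log2 did not pass (limma adjusted p = 0.244). Erbb2, the dimer partner, read -0.53 and -0.01 on the knockout-labelled and -3.10 and -1.14 on the wild-type-labelled GFP-on arrays, against 0.40 and 0.43 in GFP-off cells. It was well above background on 3 of the 4 GFP-on arrays and lay lower on all of them, as 16.8% of genes did, and its difference of -1.61 ± 0.65 log2 did not pass (limma adjusted p = 0.199). Egfr, the family's epidermal growth factor receptor, differed by -1.88 log2 (limma adjusted p = 0.0511). Erbb4 did not reach the filter.

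Between genotype labels in GFP-on cells, where Sox10, Foxd3 and Erbb3 did not pass, other genes of these lists did, where 15.8% of all genes were higher and 7.24% lower in knockout-labelled cells. Markers of other cells moved as well: 6 of 10 microglia and macrophage genes were higher and 0 lower (median 1.88 log2), as were 4 of 8 motor neuron genes with 0 lower, 3 of 13 sensory neuron genes with 2 lower, and 2 of 10 endothelial genes with 1 lower (limma). Their part in the differences below was not tested. Of the 19 Schwann lineage genes, 6 passed as higher and 0 as lower in knockout-labelled cells (limma): Cnp, a myelin enzyme (3.69 log2), Ednrb (3.26), Fabp7, a fatty acid binding protein of glial precursors (2.98), Sox2, a progenitor SOX factor (2.17), Hey2, a Notch target, and Cdh19. Hey2 and Cdh19 were not well above background on either wild-type-labelled array, which puts Hey2 at least 1.15-fold higher and gives Cdh19 no bound. Cdh19 reached the filter through the knockout-labelled arrays alone, so its call is a value and no support for a difference between labels. Cnp, Sox2 and, below, Hand2 were well above background on 1 of the 2 wild-type-labelled arrays. The list's median was 1.08 log2, beside 0.34 over all genes. Of 13 tested genes of other crest derivatives, 5 rose and 1 fell. Among these, Phox2a, a homeodomain factor of autonomic neurons (2.39 log2), Hand2, a bHLH factor of sympathetic neurons (3.33), Kit, a receptor of pigment cell precursors (3.10), and Dbh, which makes noradrenaline (2.44), were higher, and Tyr, the melanin enzyme, fell by 2.05 log2. Of 16 crest specification genes, Myc rose (at least 6.64-fold) and Ets1 fell by 1.54 log2, 2 of 16 where 23% of all genes were called in either direction. With no filter on dim probes, 0 genes of the whole array passed this comparison (limma, 5043 at an unadjusted p under 0.05), and these calls ended. The wild-type-labelled GFP-on arrays are those that stood apart, and the slide row goes with the label.

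**Figure D4:**
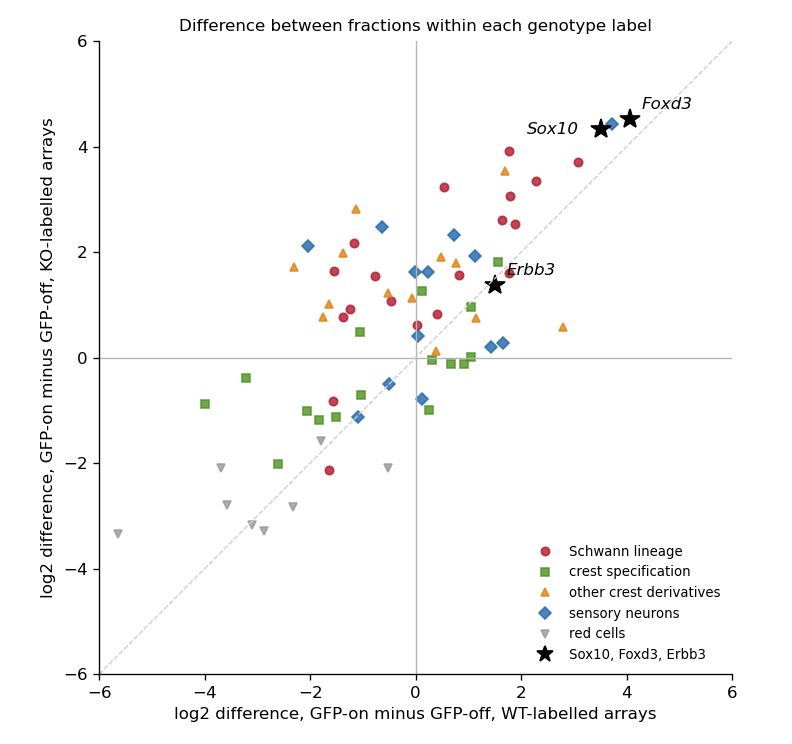
Difference between GFP-on and GFP-off cells (log2) on knockout-labelled arrays (vertical axis) against wild-type-labelled arrays (horizontal axis), for Sox10, Foxd3 and Erbb3 (stars) and the tested genes of 5 marker lists; the dashed line is equality. Sox10 (4.34 and 3.51) and Foxd3 (4.53 and 4.06) lie at the top right, Erbb3 (1.38 and 1.51) near the line, and no red cell gene is above 0 on either axis.

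Markers of the other cells that a dissected cord can hold were read beside these results. Beside the counts below, 1.54% of all genes were called higher between fractions and 0.751% lower. Motor neuron genes rose in GFP-on cells in 4 of 8 tested, among them Lhx4 (3.88 log2) and Chat (3.17), the enzyme that makes acetylcholine, and 0 fell (limma). Mnx1 had no matched probe, so the gene behind the reporter was not read. Red cell genes fell in 6 of 8, led by Hbb-b2 at -4.50 log2. Of 13 sensory neuron genes 1 rose, Sncg, a synuclein of peripheral neurons, by 4.07 ± 0.42 log2 (limma adjusted p = 0.00940), and none fell; Pou4f1 and Ntrk3, markers of the same neurons, each differed by 1.52 and did not pass. Summed over its tested genes as multiples of the array's 75th percentile, the sensory list stood at 104 to 228 on GFP-on arrays, against 68.9 and 83.9 on GFP-off arrays. That list shares Isl1 with the motor neuron list and also names Tubb3, a general neuronal gene. Its sum is therefore not particular to sensory neurons. The Schwann list stood at 60.8 to 172 on GFP-on arrays, against 52.8 and 49.8 on GFP-off arrays. This list holds Gap43, which is abundant in growing neurons, so its sum is not particular to Schwann cells either. By the list's mean log2 level the fractions overlapped. That mean was 1.32 and 1.09 on knockout-labelled and -0.10 and -0.60 on wild-type-labelled GFP-on arrays, against -0.49 and -0.68 on the GFP-off arrays in that order.

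Of 10 tested genes listed for V1 and dI2 interneurons, the cells of the cord that also use Foxd3, 1 rose, Pax8, by 2.67 ± 0.42 log2 (limma adjusted p = 0.0237), where 1.54% of all genes were called higher. All 10 were positive, among them En1, by 0.32 log2, which was well above background on 2 of the 6 arrays. Their summed level was 58.8 to 92.5 on GFP-on arrays, against 31.0 and 39.5 on GFP-off arrays. The brightest of them were Slc32a1, at 4.56 to 5.17 log2 on GFP-on arrays against 2.85 and 3.44 on GFP-off arrays, and Foxp4, at 3.68 to 5.11 against 4.02 and 4.17. Slc32a1, Gad1 and Gad2 are transmitter genes of inhibitory neurons in general. The list and its sum are therefore not particular to V1 and dI2 cells. Of 8 tested oligodendrocyte precursor genes, 0 rose and 0 fell by limma (6 at an unadjusted p under 0.05), Pdgfra, their growth factor receptor, differed by -2.12 log2, and Olig2 did not reach the filter. Their summed level was 10.05 to 13.9 on GFP-on arrays, against 30.7 and 25.7 on GFP-off arrays. This list shares Sox5, Sox8 and Sox9 with the crest specification genes, so its sum is not particular to oligodendrocyte precursors. In the lists of microglia, endothelium and mesenchyme 0 of 10 genes each passed in either direction (limma, 2, 0 and 6 at an unadjusted p under 0.05), and all 10 mesenchyme genes were negative. The part of sensory neuron, interneuron or glial RNA in the differences of Sox10 and Foxd3 was not tested.

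Over the 6 arrays the level of Sox10 correlated with that of Foxd3 at r = 0.979, and Erbb3 correlated with Sox10 at 0.628 and with Foxd3 at 0.556. These are descriptions over 6 arrays that share the fraction difference and the scaling. Genes with a range of at least 2 log2 over the arrays were ranked by their correlation with each of the 3. Closest to Sox10 were Col20a1, a collagen gene (r = 0.999), Khdrbs2, an RNA-binding protein gene (0.998), Egfl8 (0.995), the ghrelin receptor gene Ghsr (0.994) and Cpeb1 (0.993). Ghsr was well above background on the 4 GFP-on arrays and on neither GFP-off array. The filter thus admitted Ghsr through the group where it is high. Cpeb1 was not well above background on either wild-type-labelled GFP-on array. As a description, since the choice used the same arrays, Col20a1 differed between fractions by 4.01 log2, Khdrbs2 by 2.41 and Egfl8 by 2.31.

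Closest to Foxd3 were Fam163a (r = 0.999), the kinase gene Camk2b (0.997), Inpp5j (0.996), the nuclear receptor gene Esrrg (0.996) and the synaptic vesicle gene Syn1 (0.996). Closest to Erbb3 were AU018091 (r = 0.994), Krtap9-1 (0.994), Plekhn1 (0.989), Plcl1 (0.988) and Stxbp5l (0.988). The differences of the 5 genes of Erbb3 between fractions, again chosen on these arrays, ran from 0.88 to 2.43 log2. Krtap9-1 and Plekhn1 were well above background on 4 and 3 of the 6 arrays.

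**Figure D5:**
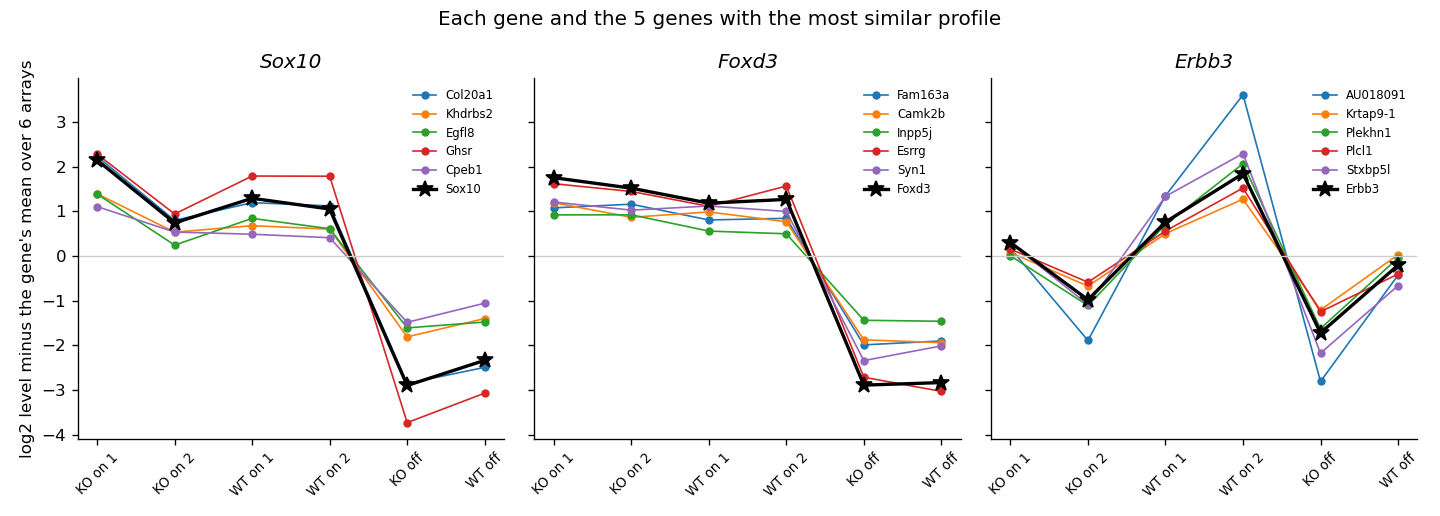
Level of Sox10, Foxd3 and Erbb3 (black) and of the 5 genes most correlated with each over the 6 arrays (colours), in log2 minus the gene's own mean. The profiles of Sox10 and Foxd3 step down at the 2 GFP-off arrays, and that of Erbb3 peaks on the wild-type-labelled GFP-on arrays.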

How the data were processed

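Cy3-labelled cRNA of sorted cells was read on 1-colour Agilent arrays, per the labels' protocols. Agilent Feature Extraction 10.5.1.1 read the spots, per the file headers, while the submitters' processing notes name 9.1. The deposited processed signal is an intensity, background-subtracted and detrended within the array with no scaling between arrays, per the file headers, and the deposited raw signal and background are intensities too. Presence flags for background and saturation are deposited as other kinds of values. The authors' deposited log2 table equals the log2 processed signal minus the array's 75th percentile within 0.01 on every probe. No count of reads and so no depth exists on arrays, and their number limits precision.

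Here, log2 processed signals were averaged over unflagged spots and the array's 75th percentile was subtracted. Probes were named by RefSeq accession (26300 of 55681 matched), kept where 2 or more arrays read them well above background, and the brightest stood for its gene. The files name mm9, and printed coordinates are those of the GRCm38.p6 table. Tests used limma 3.58.1 in R 4.3.3, as described with each result; the genotype, within-label and interaction contrasts came from 4 group means. Single arrays were assumed to vary like the replicated groups. The methods were tested on simulated data with differences near those of Sox10 and Foxd3 or larger. The simulation held no smaller differences and no scaling differences between arrays. The 3 genes and the lists were chosen with earlier results of these data known. Named genes were the 3 genes, list members past the threshold in a comparison or else the 3 with the largest difference between fractions, Nrg1, Erbb2, Mir17hg and the 5 genes most correlated with each of the 3; further genes named, among them Pmp22, Erbb4, Olig2, Gfap and Mnx1, were chosen after their values were seen. A few genes meeting this rule are left unreported. Alternatives were other scalings, background correction and filters, a replicate or slide row block, single probes and leaving out arrays.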

Additional observations from a re-analysis of the deposited data

How the results depend on the processing

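Sox10 and Foxd3 kept a positive difference between fractions in all 21 alternatives run. They passed the limma threshold in 15, which were not all separate checks. The slide row block, the wild-type-labelled arrays alone and leaving out the knockout-labelled GFP-off array all gave the wild-type-labelled differences. The replicate block gave those of the replicate 1 arrays alone, and the authors' table holds nearly the values used here. Sox10 and Foxd3 missed the threshold with quantile normalization (3.93 and 4.29 log2), with no filter on dim probes (3.93 and 4.29), with spike-in signal entered as a covariate (2.79 and 4.10) and with no scaling (1.79 and 2.16). The cause was not tested. With single arrays left out the differences ranged from 3.51 to 4.34 for Sox10, 4.06 to 4.53 for Foxd3 and 1.18 to 1.73 for Erbb3. For Sox10 and Foxd3 the ends of these ranges are the differences within each label. Erbb3 turned to -0.43 with the spike-in covariate and -0.69 unscaled. The number of genes called, 342 in the design used, was 0 under quantile normalization, 0 with no filter, 2 with the spike-in covariate, 873 with the slide row as a block, 183 unscaled, 5088 with spike-in scaling, 913 on replicate 1 arrays only, 916 on knockout-labelled and 1062 on wild-type-labelled arrays alone, and 0 to 1096 with an array left out. No scaling, spike-in scaling and the fits on replicate 1 or on one label were chosen after seeing the data.

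On knockout-labelled arrays, where 0 genes passed, 185 passed with median scaling, 68 with normexp, 36 with the spike-in covariate, 19 with spike-in scaling and 0 to 913 with an array left out. Sox10 and Foxd3 passed there with median scaling (4.40 and 4.58 log2) and with normexp (3.75 and 3.69); leaving out arrays gave 3.64 to 5.05 and 4.41 to 4.64. Erbb3 turned to -0.34 with the spike-in covariate and -0.28 unscaled. On wild-type-labelled arrays, where 873 genes passed, 2120 passed with median scaling, 0 with quantile normalization, 0 with no filter, 32 with the spike-in covariate, 0 unscaled, 2932 with spike-in scaling and 888 to 5187 with an array left out. Sox10 and Foxd3 missed the threshold there with quantile normalization (3.53 and 4.26), no filter (3.51 and 4.06), the spike-in covariate (2.01 and 3.73), no scaling (0.90 and 1.45) and spike-in scaling (2.17 and 2.72). Erbb3 turned to -0.64 with the spike-in covariate and -1.10 unscaled, and ranged from 0.97 to 2.05 with arrays left out, passing at 2.05 without replicate 1 of the wild-type-labelled GFP-on arrays (limma adjusted p = 0.0233).

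Between labels in GFP-on cells, 3434 genes passed, against 5164 with median scaling, 1697 with quantile normalization, 1399 with normexp, 0 with no filter, 9 with the spike-in covariate, 8257 probes tested singly, 0 unscaled, 7971 with spike-in scaling, 0 in an additive model and 912 to 7001 with an array left out. Spike-in scaling brought Sox10 (1.98 log2) and Foxd3 (2.12) past the threshold and turned Erbb3 to 0.067; the spike-in covariate turned Erbb3 to 1.09, and the additive model turned Sox10 to -0.0061. With an array left out Sox10 ranged from -0.43 to 0.97 and Erbb3 from -2.28 to -1.0. In the difference between labels, 0 genes passed, against 79 with median scaling, 1 with normexp, 21 with the spike-in covariate, 4 with spike-in scaling and 12 to 1453 with an array left out. Erbb3 turned positive there, at 0.25 with median scaling, 0.29 with the spike-in covariate, 0.82 unscaled and 0.14 with spike-in scaling, and ranged from -0.77 to 0.51 with an array left out. In GFP-off cells Sox10 turned to 0.13 unscaled and 0.88 with spike-in scaling, Foxd3 to 0.20 with median scaling, 0.13 with quantile normalization, 0.63 unscaled and 1.39 with spike-in scaling, and Erbb3 moved to -0.069 with spike-in scaling. A contrast that needs a single GFP-off array has no value without it. The slide row could serve as a block only between fractions, where it repeated the wild-type-labelled comparison.

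The labels number GFP-on replicates 1 and 2 under both genotypes without saying that a number marks a shared litter or day, and over 14918 genes the replicate differences of the labels correlated at -0.15, so across labels the samples share only a number. Within each label, the descriptions give GFP-on replicate 1 and the GFP-off array a common tag of unstated meaning, which may mark a common source. On those 4 arrays alone the differences were 4.34 log2 for Sox10 and 4.33 for Foxd3, past the threshold (limma adjusted p = 0.0147 and 0.0133), and Erbb3 missed it (adjusted p = 0.106). With the replicate block, 387 genes passed between fractions, 3607 between labels and 1264 on wild-type-labelled arrays. It gave 161 genes on knockout-labelled arrays, Sox10 (4.75 log2) and Foxd3 (4.56) among them, and 34 for the difference between labels. With the numbers crossed, a replicate block chosen after seeing the data, the counts were 0 between fractions, 5268 between labels, 280 and 3528 within knockout and wild-type labels and 89 for their difference.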
